A study of Anopheles arabiensis with 20 samples.

Results

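The mitochondrial genome of *Anopheles arabiensis* encodes 7 subunits of respiratory complex I, ND1, ND2, ND3, ND4, ND4L, ND5 and ND6, and their transcripts were followed through 20 RNA libraries. The genes were taken by identifier from a table of 13867 genes (ASK67_gp01, ASK67_gp13, ASK67_gp07, ASK67_gp05, ASK67_gp04, ASK67_gp06 and ASK67_gp03, in the order just given), and all 7 passed the filter on low counts that left 11018 genes. A library represents the pooled polyA RNA of 10 complete females that were aged 3 to 5 days and unfed on blood. There were 4 libraries in each of 5 groups. The field populations came from Asendabo (ASN), Chewaka (CHW) and Tolay (TOL) in Ethiopia and were raised on site from collected larvae, and they are described in the labels as resistant to deltamethrin and DDT, a pyrethroid and an organochlorine insecticide. SEK (Sekoru, Ethiopia) and MOZ (Mozambique) are laboratory strains described as susceptible. The labels describe no insecticide exposure of the females sampled.

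Complex I, NADH dehydrogenase, passes electrons from NADH to ubiquinone at the start of the respiratory chain and pumps protons across the inner mitochondrial membrane. Its mitochondrially encoded subunits form the core of the membrane arm, and the rest of the complex is encoded in the nucleus. ND2, ND4 and ND5 are the large antiporter-like subunits of the proton-pumping part, ND1 lies at the joint with the peripheral arm beside the ubiquinone site, and ND3, ND4L and ND6 are small subunits near that joint. In insects ND1, ND4, ND4L and ND5 are encoded on one strand of the mitochondrial DNA and ND2, ND3 and ND6 on the other, and the strands are transcribed as long precursors that are cut at transfer RNAs. In the RefSeq table (AaraD3) ND4L overlaps ND4, and ND6 overlaps CYTB (cytochrome b, of complex III), so reads of these pairs may have been lost or shared in counting. Nuclear gene identifiers have no names in the files, so nuclear complex I subunits and tissue markers were not analysed here.

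Total counts ran from 12205530 to 21516390 per library. The titles name 2 sequencing runs. ASN and TOL were sequenced wholly in the first, SEK and MOZ wholly in the second, and CHW in both (replicates 1 and 2 in the first, 3 and 4 in the second), so for ASN and TOL against the strains the run and the group cannot be told apart. ASN replicate 2 and TOL replicate 2 stood apart from the rest of their groups in several ND genes, and CHW replicate 4 was below the other CHW libraries in ND1, ND4 and ND5. Where leaving out 1 of these libraries changed a call or moved a mean by over 1.5 times, the value without it is given beside the result.

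The 7 genes together took 0.705%, 0.348%, 0.931% and 0.936% of all counts in ASN replicates 1 to 4 and 1.12%, 0.578%, 0.934% and 0.711% in TOL. They took 0.292%, 0.283%, 0.279% and 0.113% in CHW. In the strains the shares were 0.212%, 0.215%, 0.137% and 0.159% in SEK and 0.119%, 0.0721%, 0.104% and 0.0793% in MOZ. Every ASN and TOL library lay above every other library, and every MOZ library lay below every SEK library. The means were 0.73% ± 0.276 in ASN, 0.835% ± 0.239 in TOL, 0.242% ± 0.0857 in CHW, 0.181% ± 0.0389 in SEK and 0.0935% ± 0.0217 in MOZ (SD, n = 4 each). The widest 95% Wilson interval of a single share was 0.00919 percentage points, for counting error only. In pools of whole females, fewer mitochondria-rich cells and less mitochondrial RNA per cell cannot be told apart.

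Among the large subunits, ND4 and ND5 gave the clearest separation. Levels are in CPM, counts scaled to the size of the library, after normalization by TMM (trimmed mean of M values). ND4 stood at 2377, 1275, 3180.2 and 2729.8 CPM in ASN, 4408, 2728, 3373 and 2056 in TOL, and 806, 951, 1067 and 308 in CHW, in the order of replicates 1 to 4. It stood at 594, 659, 318.7 and 391 CPM in SEK and 236, 129, 215 and 116 in MOZ. The 8 ASN and TOL libraries were above all others, MOZ was below all others, and CHW and SEK overlapped. ND5, also a proton-pumping subunit, had the same order of groups, with 2138 ± 903 CPM in ASN, 2649.6 ± 956 in TOL, 493 ± 179 in CHW, 370.3 ± 107 in SEK and 139 ± 43.6 in MOZ (means with SD, n = 4 each). Of the pairs of groups, ASN with TOL and CHW with SEK overlapped in ND5 and the others did not.

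ND2 and ND3 were high in ASN and TOL except in 1 library of each. ND2 stood at 966, 110.5, 1418 and 1325 CPM in ASN replicates 1 to 4 and at 2313, 139.7, 1292 and 785 in TOL. It stood at 245, 123, 51.1 and 88.3 CPM in CHW, 195, 192, 84.3 and 93.1 in SEK, and 42.0, 34.5, 71.9 and 34.4 in MOZ. Replicate 2 of ASN and of TOL thus lay within the range of CHW and SEK, while the other ASN and TOL libraries were above every CHW, SEK and MOZ library. ND3, a small subunit beside the joint of the 2 arms, stood at 1426, 275, 1628 and 1085 CPM in ASN and 2127, 303, 1813 and 1216 in TOL. The other groups had 134 ± 45 CPM of ND3 in CHW, 117 ± 47.1 in SEK and 82.4 ± 15.9 in MOZ (SD, n = 4 each). Even the low replicate 2 libraries of ASN and TOL were above all 12 libraries of CHW, SEK and MOZ in ND3.

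ND1 varied over a smaller range. It stood at 1392, 1254, 1542 and 1310.0 CPM in ASN, 2180.5, 2059.9, 1902 and 1139 in TOL, and 895, 975, 1014 and 259 in CHW. It stood at 500.2, 551, 269 and 339.8 CPM in SEK and 377, 247, 327 and 328 in MOZ. ASN and TOL were above all other libraries, CHW replicate 4 fell among the strains, and SEK and MOZ overlapped.

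The small subunits ND4L and ND6 had the fewest counts, from 47 in MOZ replicate 4 to 832 in TOL replicate 2 for ND4L and from 406 to 2023 for ND6. ND4L stood at 19.4, 24.9, 34.1 and 29.2 CPM in ASN, 46.4, 55.4, 39.5 and 21.9 in TOL, and 32.9, 35.9, 22.1 and 12.5 in CHW. It stood at 25.1, 31.8, 14.2 and 17.5 CPM in SEK and at 6.74, 5.78, 7.14 and 2.95 in MOZ. MOZ was below every other library, and the other 4 groups overlapped one another.

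ND6 had no such order. It stood at 45.3, 77.3, 44.0 and 30.4 CPM in ASN, 50.7, 116, 70.1 and 41.0 in TOL, and 103, 57.4, 45 and 47.5 in CHW. It stood at 103, 118, 62.4 and 69.97 CPM in SEK and 42.5, 28.3, 55.4 and 34.0 in MOZ. SEK had the highest mean, at 88.3 ± 26.4 CPM (SD, n = 4), and SEK and MOZ were the only pair of groups that did not overlap in ND6.

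**Figure D1:**
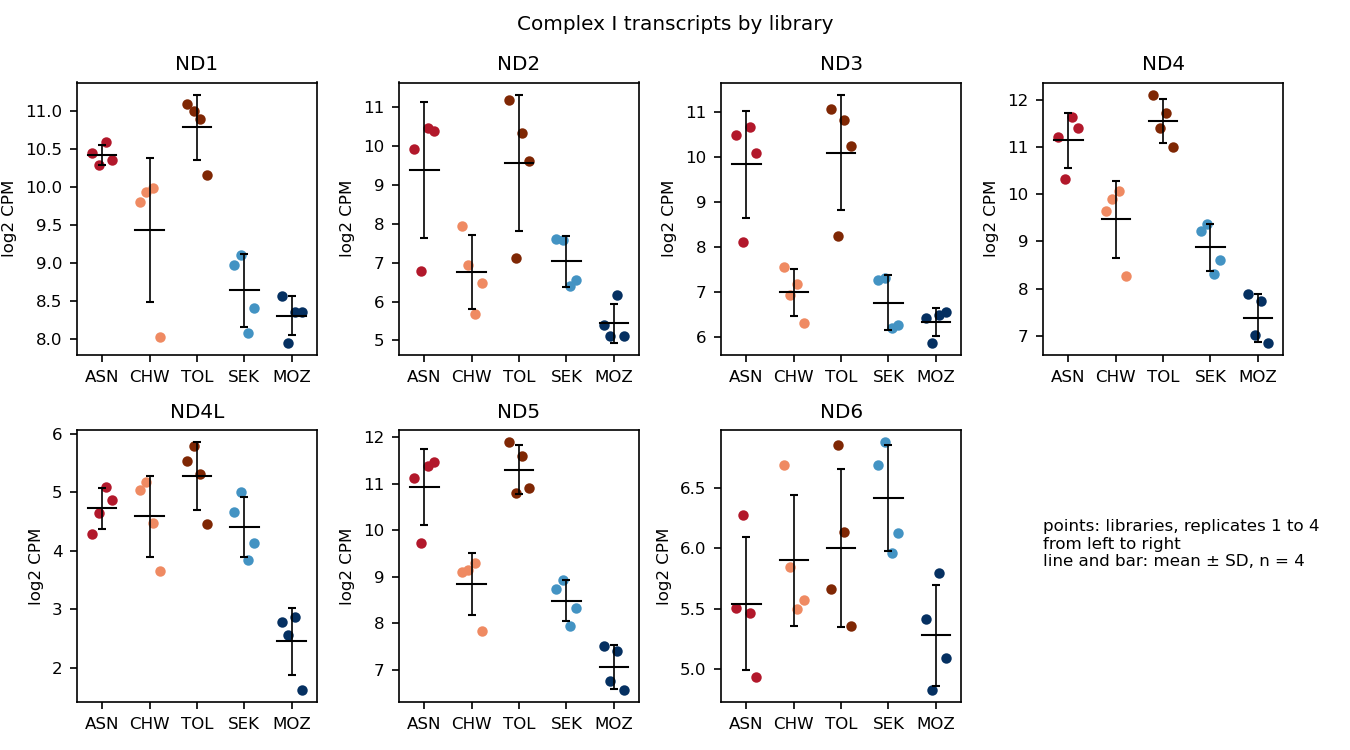
Log2 CPM (TMM-scaled, prior count 2) of each ND gene in the 20 libraries, by group; points are libraries and bars are mean ± SD (n = 4). ASN and TOL lie above the other groups for ND1, ND3, ND4 and ND5, with replicate 2 low for ND2 and ND3, while ND6 shows no step between field populations and strains.

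Each gene was then tested in edgeR's quasi-likelihood test over all genes, and called at an adjusted p under 0.05 with a fold change of at least 2. When the 3 populations were averaged and set against the 2 strains, 6 of the 7 genes were called higher, against 3.91% of all genes called higher. The log2 fold changes were 2.63 for ND4 (SE 0.256, edgeR adjusted p 7.69e-07) and 2.63 for ND5 (SE 0.259, adjusted p 8.05e-07). They were 2.58 for ND3 (SE 0.349), 2.68 for ND2 (SE 0.486), 1.78 for ND1 (SE 0.214) and 1.44 for ND4L (SE 0.228), with adjusted p-values from 4.71e-06 for ND1 to 0.000258 for ND2. ND6 was not called, at 0.01 (SE 0.219, edgeR adjusted p 0.971), and its sign turned under other scalings, to -0.06 with upper quartiles and -0.30 with library totals alone. The median over the 7 genes was 2.58, against -0.01 over all genes tested. All 6 protein-coding mitochondrial genes outside complex I were also called higher, with a median of 2.37. The errors and p-values of this comparison rest on the spread between libraries within groups. They do not measure the spread among the 3 populations or between the 2 strains. The average also covers unlike populations, since in CHW against SEK, given below, none of the 7 genes was called.

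The labels call the populations resistant and the strains susceptible, and resistance and the origin of the mosquitoes, from the field or from a colony, cannot be told apart in this comparison. The sequencing run also moved with it. With a run term in the model, estimable from CHW only, 3 of the 7 genes stayed called, ND4 at 2.33 (SE 0.476, edgeR adjusted p 0.00829), ND5 at 2.31 (SE 0.481, adjusted p 0.00915) and ND3 at 2.18 (SE 0.653, adjusted p 0.048). In that fit ND1 was at 1.31 (adjusted p 0.0532), ND2 at 1.46 (adjusted p 0.305), ND4L at 0.58 (adjusted p 0.382) and ND6 at -0.67 (adjusted p 0.363). Calls over all genes changed too. Over the 11 comparisons they ran from 152 to 1387 of 11018 genes with the run term, and from 153 to 1737 without it. Whether the loss of calls was particular to the ND genes was not tested. Within CHW the run can be compared directly, replicates 3 and 4 against 1 and 2. The log2 differences ran from -1.40 for ND2 (SE 0.943) to -0.35 for ND4 (SE 0.510), all 7 below 0. In ND1, ND4 and ND5 the sign came from replicate 4 alone. Replicate 3 had the highest CHW level of these genes, at 1014, 1067 and 628 CPM. None of the 7 was called there, against 0% of all genes, and 1 of them, ND4L, had an unadjusted p under 0.05, at 0.0296 (edgeR).

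**Figure D2:**
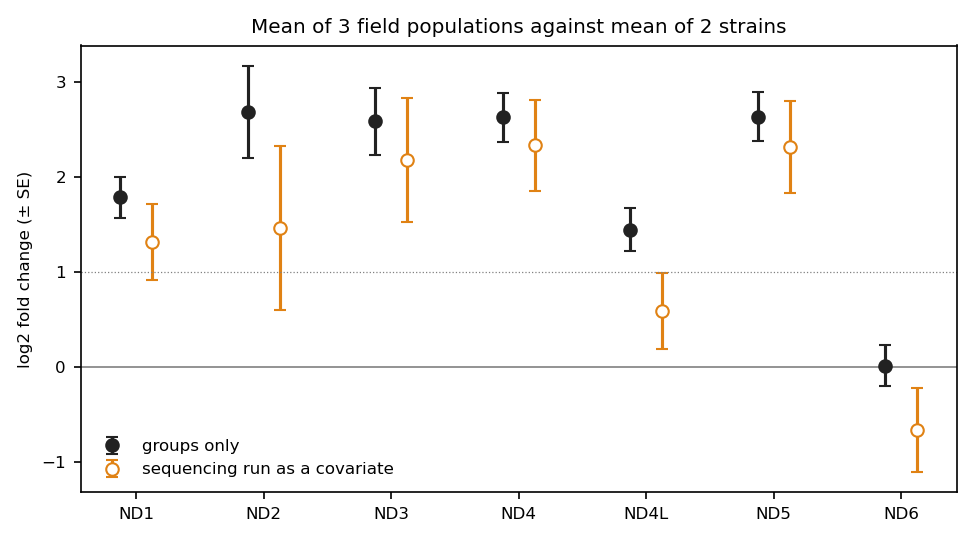
Log2 fold change (± SE) of each ND gene, the 3 field populations against the 2 strains, fitted with groups only (filled) and with the sequencing run as a covariate (open); the dotted line marks a 2-fold change. ND4, ND5 and ND3 stay above 2 in both fits, ND2 and ND4L move down the most, and ND6, near 0 with groups only, changes sign with the scaling and with the run.

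Each population was set against each strain. The 3 comparisons with a given strain rest on the same strain libraries and are not independent. Against SEK, 5 ND genes were called higher in ASN, against 4.87% of all genes, and the same number in TOL, against 5.84%. These were ND1, ND2, ND3, ND4 and ND5 in both. The largest log2 fold change was that of ND3, at 3.24 in ASN (SE 0.530, edgeR adjusted p 0.000287) and 3.55 in TOL (SE 0.537, adjusted p 0.000102). ND1 was at 1.73 in ASN (SE 0.319) and 2.13 in TOL (SE 0.323). ND4L was at 0.28 in ASN (adjusted p 0.553), where the run as a covariate turned it to -0.71. In TOL, ND4L was at 0.88 (adjusted p 0.0498), under the 2-fold limit, and it was called without SEK replicate 2, at 1.11, or without TOL replicate 4, at 1.09. ND6 was at -0.84 in ASN (edgeR adjusted p 0.0752) and -0.35 in TOL (adjusted p 0.47), and without ASN replicate 2 it was called lower in ASN, at -1.15 (adjusted p 0.0315). With the run as a covariate 1 gene, ND5, stayed called in ASN and 3 in TOL (ND3, ND4 and ND5). Over all comparisons, 152 to 1387 of all genes were called with that covariate, against 153 to 1737 without it. Such ranges do not show how many calls over all genes were lost in ASN or TOL against SEK. Whether the ND genes lost more of their calls than other genes was not tested.

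In CHW against SEK none of the 7 was called in either direction, against 3.66% of all genes. The log2 fold changes ran from -0.48 for ND6 (SE 0.339) to 0.92 for ND1 (SE 0.313, edgeR adjusted p 0.0648), and 1 gene, ND1, had an unadjusted p under 0.05. By DESeq2 the count was 0, and by limma with voom also 0. Without CHW replicate 4, ND1 was called at 1.20 (adjusted p 0.00204).

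Against MOZ, 6 ND genes were called higher in ASN, against 8.28% of all genes, and 6 in TOL, against 7.73%, in both cases all but ND6. ND2 had the largest log2 fold change, at 4.38 in ASN (SE 0.773, edgeR adjusted p 0.000146) and 4.63 in TOL (SE 0.782, adjusted p 0.000116). ND4 was at 3.78 in ASN (SE 0.397) and 4.17 in TOL (SE 0.405). In CHW 4 were called higher than in MOZ, against 4.68% of all genes. These were ND4L at 2.18 (SE 0.357), ND4 at 2.17 (SE 0.372), ND5 at 1.82 (SE 0.372) and ND1 at 1.30 (SE 0.315). ND3 was at 0.70 (adjusted p 0.286) and ND2 at 1.47 (adjusted p 0.105). Within the second run, with CHW replicates 3 and 4 alone, ND4L, ND4 and ND5 were called. Over the comparisons within that run, 216 to 1453 of all genes were called. With the run as a covariate 3 were called in ASN (ND3, ND4 and ND5), 5 in TOL (all but ND2 and ND6) and 3 in CHW (ND4L, ND4 and ND5). Calls over all genes with the covariate are given above as a range only, so these counts were not set against them.

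The strains differed from each other. In MOZ 4 ND genes were called lower than in SEK, against 6.29% of all genes. ND4L was at -1.96 (SE 0.355, edgeR adjusted p 0.000268), ND4 at -1.49 (SE 0.364), ND5 at -1.41 (SE 0.368) and ND6 at -1.14 (SE 0.343, adjusted p 0.0125). ND1 was at -0.38 (adjusted p 0.348), ND3 at -0.50 (adjusted p 0.436) and ND2 at -1.62 (adjusted p 0.0675). Within the second run alone, which held both strains, ND2 was called as well, at -1.61 (adjusted p 0.00402), and it was also called in the fit of all libraries without ASN replicate 2 (adjusted p 0.0334) or without TOL replicate 2 (adjusted p 0.0349), which enter through the shared spread. Without SEK replicate 2, ND6 fell under the 2-fold limit, at -0.97.

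Among the field populations, CHW was below ASN and TOL. In ASN 4 ND genes were called higher than in CHW, against 2.82% of all genes, and they were ND3 at 3.04 (SE 0.525), ND2 at 2.91 (SE 0.721), ND5 at 2.12 (SE 0.375) and ND4 at 1.61 (SE 0.364). ND1 was at 0.81 (edgeR adjusted p 0.0947), ND4L at 0.06 and ND6 at -0.36. In CHW 5 were called lower than in TOL, against 2.72% of all genes, the same 4 and ND1. ND3 was at -3.35 (SE 0.532), ND2 at -3.16 (SE 0.729), ND5 at -2.43 (SE 0.379), ND4 at -2.005 (SE 0.369) and ND1 at -1.21 (SE 0.314, adjusted p 0.0165). The ND1 call was lost without CHW replicate 4, at -0.93, and without TOL replicate 1 (adjusted p 0.0507). Within the first run alone, with CHW replicates 1 and 2, ND3, ND4 and ND5 were called in both comparisons. There ND2 was at 2.38 in ASN against CHW (adjusted p 0.176) and -2.62 in CHW against TOL (adjusted p 0.132). Over the comparisons within that run, 141 to 416 of all genes were called. With the run as a covariate over all libraries, ND4, at 1.44 (adjusted p 0.0621), and ND2, at 2.37 (adjusted p 0.107), were no longer called in ASN against CHW, which left ND3 and ND5. In CHW against TOL the covariate ended the calls of ND1, at -0.96 (adjusted p 0.12), and ND2, at -2.62 (adjusted p 0.0741), and left ND3, ND4 and ND5. Here too the lost calls were not set against those of all genes.

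ASN and TOL, 2 populations sequenced in the same run, were not told apart by any ND gene. None was called, against 1.39% of all genes, and 0 had an unadjusted p under 0.05 (edgeR). DESeq2 and limma with voom also called 0. The log2 fold changes of ASN against TOL ran from -0.60 for ND4L (SE 0.327) to -0.25 for ND2 (SE 0.670), whose error leaves room for a difference of 2-fold either way.

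The make-up of the family was compared next, since the share of each gene in the counts of the 7 does not depend on how libraries are scaled. Gene lengths enter these shares, so they are compared between groups and not between genes. The shares of a library sum to the whole, so a fall in some genes raises the shares of the others. ND6 made up 0.821% ± 0.793 of the ND counts in ASN and 0.782% ± 0.566 in TOL, 2.96% ± 1.45 in CHW, 5.42% ± 0.285 in SEK and 4.93% ± 0.684 in MOZ (means with SD, n = 4 each). Replicate 2 had the highest ND6 share of both ASN and TOL, and without it the mean was 0.427% ± 0.106 in ASN and 0.505% ± 0.144 in TOL (SD, n = 3). ND4L made up 0.378% ± 0.184 in ASN and 0.432% ± 0.226 in TOL, 1.10% ± 0.242 in CHW, 1.34% ± 0.0782 in SEK and 0.705% ± 0.218 in MOZ. ND1 made up 40.1% ± 4.85 in MOZ, 31.4% ± 4.25 in CHW and 25.3% ± 0.416 in SEK. In ASN it made up 16.5%, 32.5%, 14.7% and 14.01% and in TOL 14.6%, 28.6%, 16.4% and 15.9%, so that replicate 2 alone reached the share of CHW and SEK. The level of ND1 itself was not the highest of its group in either library. At 1254 CPM ASN replicate 2 was the lowest of ASN, and TOL replicate 2, at 2060, was below TOL replicate 1. The ND4 share of SEK ran from 29.8% to 29.9% over its 4 libraries, against 16.5% to 24.2% in MOZ.

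Permutation tests over the 20 libraries asked whether the log2 share of each gene differed among the 5 groups. With 100000 resamples and adjustment over the 7 genes, it did for 5 of them. The shares are tied to one another, so these are not 5 separate results. The permutation p was 1e-05 for ND5, the smallest such a test can give (adjusted 7e-05), 0.00017 for ND6 (adjusted 0.000595), 0.00039 for ND4L (adjusted 0.00091), 0.00073 for ND4 (adjusted 0.00128) and 0.00176 for ND1 (adjusted 0.00246). It was 0.0562 for ND3 (adjusted 0.0656) and 0.622 for ND2 (adjusted 0.622). ND3 passed on the linear ratio (permutation p 0.0383, adjusted 0.0447), without ASN replicate 2 (adjusted 0.0291) and without TOL replicate 2 (adjusted 0.000933). For single pairs of groups an exact 2-sided permutation test cannot give less than 0.0286, and after adjustment over 70 tests the lowest value was 0.08, so 0 of the 70 passed. Within the first run, without the strains, 0 of the 7 genes passed, with the smallest permutation p at 0.0229 for ND4L (adjusted 0.119). Within the second run 6 passed, all but ND2. Without ASN replicate 2 and TOL replicate 2, an alternative chosen after the data were seen, all 7 passed, ND2 with a permutation p of 0.0154 (adjusted 0.0154).

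**Figure D3:**
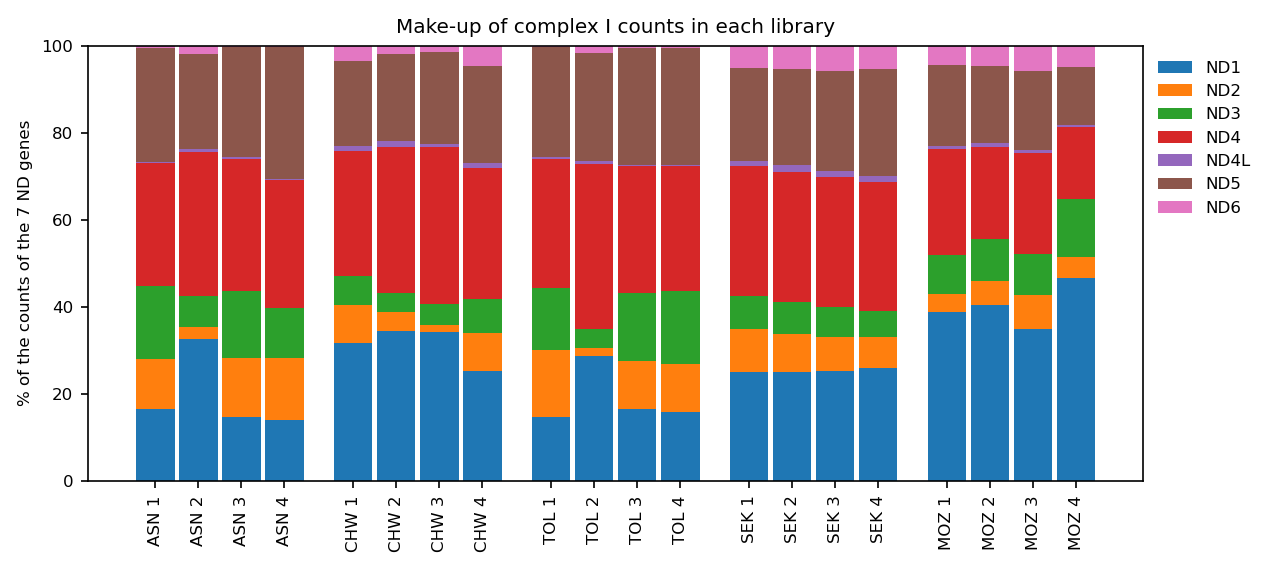
Share of each ND gene (percent) in the summed counts of the 7 ND genes, 1 bar per library, by group. ND4 takes 29.8% to 29.9% in every SEK library, and MOZ libraries have the largest ND1 share. Replicate 2 of ASN and of TOL has a larger ND1 share and smaller ND2 and ND3 shares than the other libraries of its group.

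The ND genes were also set against COX1, COX2 and COX3, the mitochondrially encoded core subunits of cytochrome c oxidase (complex IV), to see whether they moved with other mitochondrial messengers. Per 1000 counts of the 3 COX genes, ND6 had 0.489 ± 0.236 counts in ASN and 0.562 ± 0.214 in TOL, 1.93 ± 1.26 in CHW, 3.24 ± 0.341 in SEK and 5.65 ± 2.51 in MOZ (means with SD, n = 4 each). All 8 ASN and TOL libraries, at 0.853 or less, were below all 8 strain libraries, at 2.86 or more, and CHW spanned the gap. The COX genes below the line differed between these groups. Log2 fold changes of populations against strains were 2.48 for COX1, 2.05 for COX2 and 2.59 for COX3, against 0.01 for ND6. ND4L had 0.264 ± 0.0649 in ASN, 0.325 ± 0.0588 in TOL, 0.696 ± 0.322 in CHW, 0.798 ± 0.0291 in SEK and 0.869 ± 0.672 in MOZ. The MOZ mean of ND4L rested on replicate 2, at 1.87, and without it was 0.537 ± 0.115 (SD, n = 3), below SEK, whose lowest library was at 0.774. ND1 had 13.4 ± 0.806 in ASN, 14.7 ± 0.591 in TOL and 15.1 ± 1.14 in SEK, with 19.2 ± 7.39 in CHW and 46.9 ± 24.0 in MOZ. MOZ replicate 2, at 79.8, and CHW replicate 1, at 29.2, had the highest ND1 ratios of their groups, but not the highest ND1 levels. In MOZ replicate 2 the COX genes were low. Against the mean of the other MOZ libraries its log2 CPM was at -1.70 for COX1, -1.65 for COX2 and -1.62 for COX3. Its ND1 was at -0.47 and, at 247 CPM, the lowest of MOZ. ND1 of CHW replicate 1, at 895 CPM, was below that of CHW replicates 2 and 3. Within CHW the COX genes had log2 differences of 0.12 to 0.32 between the second and the first run. All 7 ND genes were below 0 there, ND1, ND4 and ND5 through replicate 4 alone. The part of the run in these ratios was not tested beyond the values within each run given next.

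The log2 ratio to the COX sum differed among the 5 groups for 3 of the 7 genes. The permutation p was 2e-05 for ND6 (adjusted 0.00014), 0.00076 for ND1 (adjusted 0.00266) and 0.00361 for ND4L (adjusted 0.00842). It was 0.0659 for ND3 (adjusted 0.115), 0.219 for ND5 (adjusted 0.307), 0.426 for ND4 (adjusted 0.497) and 0.709 for ND2 (adjusted 0.709), which does not show that these ratios were alike. On the linear ratio ND4L did not pass (permutation p 0.0456, adjusted 0.0827), which left ND1 and ND6. ND3 passed without ASN replicate 2 (adjusted 0.0333) and without TOL replicate 2 (adjusted 0.00954). The same test within the first run gave ND1 (adjusted 0.00931), ND4L (adjusted 0.0211) and ND6 (adjusted 0.0455), and within the second run ND1 (adjusted 0.0262), ND3 (adjusted 0.0262) and ND6 (adjusted 0.0203). Without ASN replicate 2 and TOL replicate 2, 6 of the 7 passed and ND4 did not (permutation p 0.162, adjusted 0.162). No pair of groups passed after adjustment over 70 tests, where the lowest value was 0.143.

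**Figure D4:**
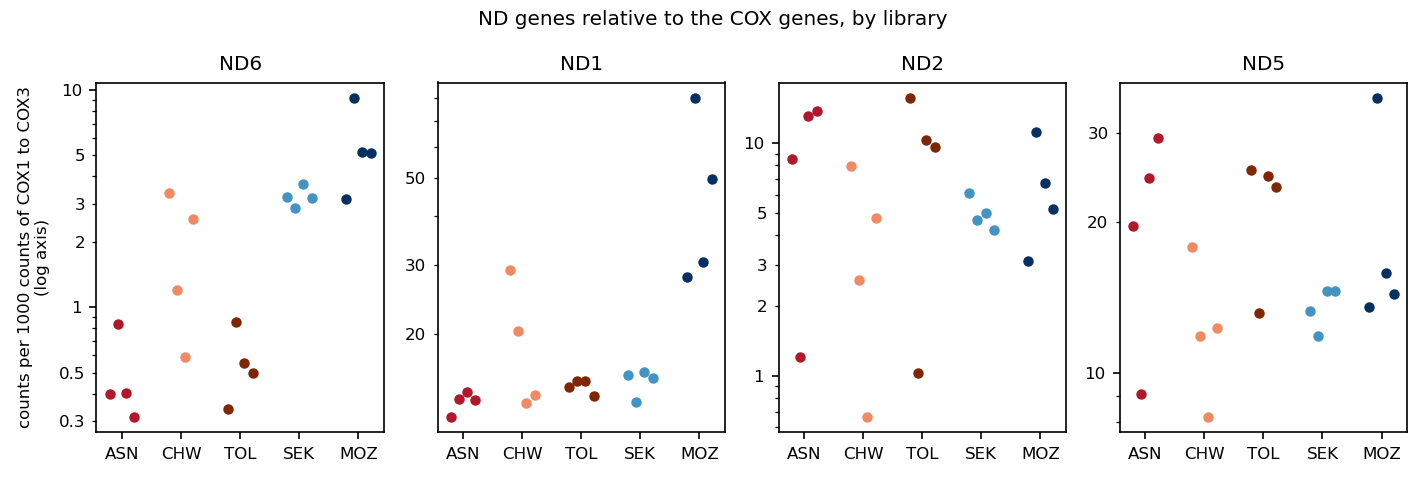
Counts of ND6, ND1, ND2 and ND5 per 1000 counts of COX1, COX2 and COX3 together in each library (log axes), by group, replicates 1 to 4 from left to right. For ND6 all ASN and TOL libraries lie at 0.853 or less and all SEK and MOZ libraries at 2.86 or more, for ND1 MOZ has the highest values but overlaps CHW, and for ND2 and ND5 replicate 2 of ASN and TOL is low.

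The ND genes varied more between libraries of a group than most genes, as did the other mitochondrial protein-coding genes. The biological coefficient of variation fitted by edgeR was 0.634 for ND2 and 0.469 for ND3, and from 0.306 for ND1 to 0.353 for ND5 in the others, against a median of 0.158 over 11018 genes. In the 6 coding genes outside complex I it ran from 0.363 for COX2 to 0.428 for ATP6, above every ND gene but ND2 and ND3. That of ND2 was at the 98.4th percentile of all genes and that of ND1 at the 89.7th. The within-group SD of log2 CPM ran from 0.53 for ND1 and ND6 to 1.24 for ND2, against a median of 0.24. Without ASN replicate 2 and TOL replicate 2, a setting chosen after the data were seen, that of ND2 was 0.67 and that of ND3 0.45, with COX1 at 0.67 and the median of all genes at 0.25.

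The lowest ND2 and ND3 values of ASN and of TOL were those of replicate 2. Set against the mean log2 CPM of the other 3 libraries of the group, ND2 was at -3.46 in ASN replicate 2 and -3.25 in TOL replicate 2. ND3 was at -2.31 and -2.46 in the same libraries. ND5 was at -1.60 and -0.66 and ND4 at -1.10 and -0.20, a larger drop in ASN than in TOL. ND1 was at -0.17 and 0.30, ND4L at -0.10 and 0.69, and ND6 at 0.98 and 1.14, so ND6 was highest of its group in the very libraries where ND2 and ND3 were lowest. Among other mitochondrial genes, ATP6, of the ATP synthase, was at -1.86 and -0.90, and COX1 at -0.19 and 0.28. The mitochondrial ribosomal RNA ASK67_gr01 was at -2.26 and -1.97, beside -2.31 and -2.46 for ND3. The low ND2 values rest on 1843 counts in ASN replicate 2 and 2098 in TOL replicate 2. Without both libraries the number of ND genes called for populations against strains was again 6.

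**Figure D5:**
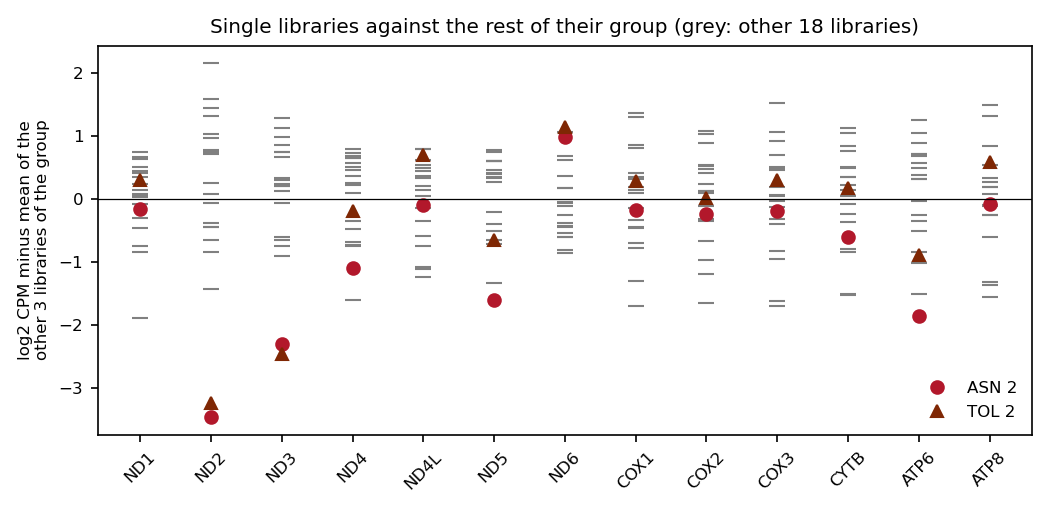
Log2 CPM of each mitochondrial protein-coding gene in a library minus the mean of the other 3 libraries of its group; coloured symbols are ASN replicate 2 and TOL replicate 2 and grey dashes the other 18 libraries. In both, ND2 and ND3 are more than 2 below the rest and ND6 is about 1 above.

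Likeness of profiles was measured as the root mean square difference of log2 CPM over the 20 libraries after each gene was centred on its mean, as a description without a test. All mitochondrial genes of a library share its depth and scaling. The closest pair within the family was ND4 and ND5, at 0.21, and the farthest ND2 and ND6, at 2.01. ND2 and ND3 differed by 0.63, and ND4 and its neighbour ND4L by 0.87. Outside the family, the gene closest to ND4 and to ND5 was CYTB, at 0.33 and 0.45, and the closest to ND3 was ATP6, at 0.58. The closest to ND2 was the mitochondrial ribosomal RNA ASK67_gr01, at 0.79, followed by ATP6 at 0.90. For ND1, ND4L and ND6 the 3 closest genes were nuclear, headed by AARA009873 for ND1, at 0.32, and AARA016512 for ND4L, at 0.35, neither of which has a name in the files.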

How the data were processed

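Counts per gene were used as the authors deposited them, without normalization, judged from the values. The submitters' processing notes name FastQC 0.11.4, HISAT2, Cufflinks, SAMtools 1.5 and HTSeq 0.9.0, and the labels' protocols describe a stranded polyA kit with paired reads of 125 bp. Build, strand setting and the handling of reads that overlap several genes were not given in the sources used here.

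Groups and replicate numbers came from the sample titles. edgeR 4.0.16 (R 4.3.3) was fitted to all 20 libraries with filterByExpr, TMM scaling and a term for the 5 groups, with Benjamini-Hochberg adjustment over all 11018 genes in each of 11 comparisons. A gene was called at an adjusted p under 0.05 and a fold change of at least 2. The standard error was the size of the log2 fold change over the square root of F. Ratios used log2 with 0.5 counts added, with permutation tests of an F statistic over the 5 groups and exact 2-sided tests for pairs. Within groups, no pair of libraries agreed within sampling noise (chi-square per degree of freedom of 26.7 or more). The fit and the permutation test were tested on simulated data. Gene names came from RefSeq's table of the assembly AaraD3, which matched the 37 mitochondrial identifiers. The alternatives were DESeq2 1.42.0, limma 3.58.1 with voom, other scalings, no filter, no fold limit, the run as a covariate, each run alone, a replicate block and leaving out libraries. All 7 genes were tested in every comparison, but not every value is printed. For likeness the 3 closest genes of each were found, and some of them are named, with at most 2 unnamed identifiers printed. The genes and lists were chosen with earlier results of these data known.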

Additional observations from a re-analysis of the deposited data

Results flagged for a closer look

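Within groups of 4 libraries, the gap between the extreme library and its neighbour, divided by the range of the group, passed Dixon's 95% critical value for 4 samples in 8 of the 75 groups of values examined, where about 1 in 20 is to be expected by chance. Values of the same library are not independent. ASN replicate 2 had the lowest log2 CPM of ND2 in ASN, at 6.79. TOL replicate 2 had the lowest log2 ratios to the COX sum in TOL, at -8.81 for ND3 and -6.25 for ND5. CHW replicate 4 was lowest in CHW in the log2 CPM of ND1, at 8.02, and of ND5, at 7.84, and in the share of counts taken by the 7 genes, at 0.113%. MOZ replicate 2 had the highest log2 ratios to the COX sum in MOZ, at -4.58 for ND4 and -4.83 for ND5. Against the mean of the other MOZ libraries, its log2 CPM was at -1.70 for COX1, -0.48 for ND4 and -0.40 for ND5. The cause of these values was not tested.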

How the results depend on the processing

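With the run as a covariate, the number of ND genes called fell from 5 to 1 in ASN against SEK, from 5 to 3 in TOL against SEK, from 6 to 3 in ASN against MOZ, from 4 to 2 in ASN against CHW, from 5 to 3 in CHW against TOL and from 6 to 3 in populations against strains. It fell from 6 to 5 in TOL against MOZ and from 4 to 3 in CHW against MOZ. Over the 11 comparisons, the number of all genes called ran from 153 to 1737 in the main fit. It ran from 152 to 1387 with the run and from 150 to 1389 with block and run. With both a replicate block and the run as terms, the number of ND genes called was 0 in ASN against SEK and 2 in TOL against SEK. It was 3 in CHW against TOL and 2 in populations against strains. The first run alone gave 3 ND genes in CHW against TOL, with 141 to 416 of all genes called over the comparisons of that run. ND6 was called lower in ASN against SEK (1 gene in place of 0) with library totals and without ASN replicate 2 and TOL replicate 2, the setting chosen after the data were seen. With the nuclear counts as the denominator the ND share was 1.05% in ASN, 1.26% in TOL and 0.222% in SEK, by construction. Ratios to the ND sum differed among groups for 0 genes within the first run, which held no strains, and for 6 within the second. Each run had 10 libraries. Ratios to the COX sum differed for 6 genes without ASN replicate 2 and TOL replicate 2. Leaving out 1 library at a time moved the number called lower in ASN against SEK between 0 and 1. It moved the number called higher in CHW against SEK between 0 and 1. Single calls also changed in TOL against SEK, CHW against TOL and MOZ against SEK, as given with those comparisons.

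Log2 fold changes changed sign only for values not called. ND4L turned to -0.71 in ASN against SEK, -0.36 in CHW against SEK, -0.11 in TOL against SEK and -0.35 in ASN against CHW with the run as a covariate. It was at -0.34, -0.20 and -0.14 with block and run in ASN against SEK, CHW against SEK and ASN against CHW. In single runs ND4L was at -0.37 in CHW against SEK and -0.35 in ASN against CHW, and with library totals at -0.087 in the latter. ND3 in CHW against SEK was at -0.055 with the run, -0.33 with block and run and -0.063 in the second run. ND6 in ASN against MOZ was at -0.066 with library totals, -0.50 with the run, -0.16 with block and run and -0.0081 without both libraries, and in TOL against MOZ at -0.0027 with the run. In CHW against TOL, ND6 was at 0.18 with library totals, 0.21 with the run, 0.082 with block and run, 0.22 in the first run and 0.23 without both libraries. For populations against strains, ND6 was at -0.065 with upper quartiles, -0.30 with library totals, -0.036 with limma and voom, -0.67 with the run, -0.038 with the block, -0.34 with block and run and -0.21 without both libraries. The cause was not tested.

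Leaving out 1 library at a time gave ranges that cross 0 for ND2 in ASN against TOL (-0.62 to 0.37) and CHW against SEK (-0.69 to 0.11), ND3 in ASN against TOL (-0.64 to 0.016) and CHW against SEK (-0.0076 to 0.39) and ND4L in ASN against CHW (-0.16 to 0.27). The same held for ND6 in ASN against MOZ (-0.0078 to 0.49), CHW against TOL (-0.47 to 0.23) and populations against strains (-0.11 to 0.11). Library totals shifted the median of all genes by -0.47 to 0.28 on the log2 scale over the 11 comparisons. With the replicate block alone 6 genes were again called for populations against strains, and ratios to the ND sum differed for 6 genes in place of 5. Same-numbered libraries of different groups had a median correlation of 0.011, against 0.0068 for other numbers, and 8 of 40 pairs were above 0.1. They ran from -0.19 to 0.53, the highest for SEK and TOL replicate 1. Of the 20 libraries, 12 correlated best with a library of their own number. In each other group 1 of the 4 libraries had that number. The main fit did not pair the samples by number, and whether the numbers pair them was not settled. Depth limits ND4L most, with 47 to 163 counts in MOZ.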
